A study of Drosophila melanogaster with 2 samples.

Results

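The regions described here are the deep intronic peaks of pan, the fly TCF, in whole Drosophila melanogaster embryos: summits that lay inside a gene, outside every exon and more than 5 kb from every annotated transcription start site (TSS). Of the 6359 conservative peaks on the main chromosome arms, 865 met this rule, which used positions and no measured level. The 1 group of samples, pan-eGFP embryos aged 0 to 24 h, came from a transgenic strain in which pan was fused to enhanced GFP, and consisted of 2 biological replicates. Chromatin was sheared by sonication and immunoprecipitated with an antibody against GFP, so the peaks report the tagged protein averaged over all embryonic tissues and stages. No untagged or mock sample was used here, and specificity for pan was not tested. Read depth is unknown from these files.

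Pan is the DNA-binding end of the Wingless (Wnt) pathway. Secreted Wingless binds Frizzled receptors and the co-receptor arrow, β-catenin (armadillo) then enters the nucleus, and pan, which represses its targets with Groucho in the absence of signal, activates them with armadillo. Its HMG box reads a short core, CTTTG followed by 2 letters that are each A or T, and its other DNA-binding domain, the C-clamp, reads a GC-rich helper site, GCCGCC followed by A or G. Introns of long developmental genes are a common place for fly enhancers, and binding far from any TSS is therefore read most naturally beside the gene that hosts it, although the target need not be the host.

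The strongest deep intronic summits on arms X, 2L, 3L and 3R are printed first, to show what a leading site looks like. Each run is the plus strand of dm6 from 50 bp before to 50 bp after the summit, and capitals would mark a TCF core. None of these 4 runs contains one, although the Raf peak has a core farther than 50 bp from its summit.
CG32486 (chr3L:3060750-3060850): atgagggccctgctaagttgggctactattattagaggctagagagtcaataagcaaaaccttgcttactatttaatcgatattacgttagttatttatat
Raf (chrX:2300663-2300763): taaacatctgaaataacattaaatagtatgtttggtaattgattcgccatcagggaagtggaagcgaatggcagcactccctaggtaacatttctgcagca
Gug (chr3L:8458270-8458370): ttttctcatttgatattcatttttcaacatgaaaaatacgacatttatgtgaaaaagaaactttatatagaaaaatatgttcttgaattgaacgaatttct
JIL-1 (chr3L:11084734-11084834): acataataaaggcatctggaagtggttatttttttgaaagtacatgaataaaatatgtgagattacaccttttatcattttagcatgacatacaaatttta

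The strongest deep intronic summits on the same arms with a TCF core within 50 bp come next, 5 in number, with the core in capitals. Sites in sbb, on another arm, that would rank among them are not printed. The core lies 20 or more bases from the summit in each of them.
simj (chr3L:10678757-10678857): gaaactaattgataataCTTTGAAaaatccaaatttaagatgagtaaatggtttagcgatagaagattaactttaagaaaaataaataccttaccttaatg
Chpf (chrX:13100043-13100143): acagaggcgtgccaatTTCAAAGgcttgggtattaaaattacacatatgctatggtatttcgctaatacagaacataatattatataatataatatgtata
Bx (chrX:18546924-18547024): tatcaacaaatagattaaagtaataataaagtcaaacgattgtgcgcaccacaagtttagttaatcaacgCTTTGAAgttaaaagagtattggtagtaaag
ed (chr2L:4080977-4081077): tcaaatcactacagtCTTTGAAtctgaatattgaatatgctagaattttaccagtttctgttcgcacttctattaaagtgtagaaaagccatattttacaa
rdx (chr3R:14018140-14018240): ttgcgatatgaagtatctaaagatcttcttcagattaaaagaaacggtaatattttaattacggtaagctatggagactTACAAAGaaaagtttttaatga

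The following 3 sites carry 2 cores each, again in capitals. The authors' pooled signal was 135 for Ptp10D, 85.0 for Mical and 10.2 for kirre. Ptp10D was in the list of passing peaks of both replicates, and Mical and kirre were in neither. The kirre site lay 199 bp from a stronger peak and had no match among replicate 1's ranked peaks.
Ptp10D (chrX:11659297-11659397): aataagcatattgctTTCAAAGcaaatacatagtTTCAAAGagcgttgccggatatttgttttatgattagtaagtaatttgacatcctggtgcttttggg
Mical (chr3R:10033024-10033124): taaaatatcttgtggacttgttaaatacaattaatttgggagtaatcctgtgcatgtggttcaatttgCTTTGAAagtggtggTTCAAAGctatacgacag
kirre (chrX:3109238-3109338): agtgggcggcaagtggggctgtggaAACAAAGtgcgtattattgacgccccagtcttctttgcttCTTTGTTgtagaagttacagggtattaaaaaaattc

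In 2 sites a core and a helper site occur together, and here capitals mark both. The site in lncRNA:CR45962 and Ten-m (pooled signal 123) was in both replicates' lists of passing peaks, and the grn site (79.4) was in neither.
lncRNA:CR45962 and Ten-m (chr3L:22390434-22390534): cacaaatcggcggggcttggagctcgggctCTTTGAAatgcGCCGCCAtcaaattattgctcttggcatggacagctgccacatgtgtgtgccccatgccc
grn (chr3R:8170352-8170452): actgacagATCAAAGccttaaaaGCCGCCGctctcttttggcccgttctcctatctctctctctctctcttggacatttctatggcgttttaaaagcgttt

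Among genes of the Wnt pathway or reported to respond to Wingless, the strongest sites of fz and dpp hold no core, and 1 site of nkd does, in capitals.
fz (chr3L:14304021-14304121): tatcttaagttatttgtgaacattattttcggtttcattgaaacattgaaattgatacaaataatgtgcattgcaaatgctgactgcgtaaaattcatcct
dpp (chr2L:2433613-2433713): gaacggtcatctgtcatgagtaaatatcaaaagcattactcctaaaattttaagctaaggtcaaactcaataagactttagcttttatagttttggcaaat
nkd (chr3L:19015750-19015850): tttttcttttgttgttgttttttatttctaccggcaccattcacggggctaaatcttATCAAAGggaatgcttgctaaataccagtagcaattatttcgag

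Deep intronic sites were less common among reproducible peaks than among peaks that fell short. The 865 peaks made up 13.6% of the conservative list, whereas 18.2% of the 113608 ranked pooled peaks below the reproducibility threshold (20625) were deep intronic. That gave an odds ratio of 0.71 (two-sided Fisher's exact p = 2.24e-21), with a 95% interval of 0.66 to 0.764. The low share was not particular to deep introns. Of conservative and sub-threshold deep intronic peaks together, 4.03% were conservative. The same share was lower in intergenic DNA (3.43%) and exons (0.532%) over 1 kb from a TSS. It was higher in introns 1 to 5 kb from a TSS (6.05%) and within 1 kb of a TSS (10.05%). Reproducibility was judged by the IDR, the irreproducible discovery rate, which compares the ranks that a peak takes in repeated lists. Deep intronic DNA covered 29.2 Mb, or 21.3% of the arms, and held 29.6 peaks per Mb. Introns 1 to 5 kb from a TSS held 59.0 peaks per Mb, intergenic DNA over 1 kb from a TSS 21.1, exons over 1 kb from a TSS 5.91 and DNA within 1 kb of a TSS 109. Peaks are not independent samples, so each test here describes the deposited list and not the spread between embryos.

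Distances to the nearest TSS ran from 5001 to 54001 bp with a median of 8974 bp, and 370 peaks (42.8%) lay over 10 kb away, against 52.9% of sub-threshold deep intronic peaks. The 3 peaks just inside the limit were in tara at 5001 bp (pooled signal 239.9), cv-c at 5002 bp (136) and CG46339 at 5012 bp (139). Just outside it were intronic peaks at 4997 bp (79.9), 4973 bp (156) and 4971 bp (159). The nearest TSS belonged to a host gene for 507 peaks (58.6%), so for the remainder another gene starts closer than the gene the site lies in. Arm 3R held 234 of the peaks (28.3 per Mb of deep intronic DNA), X 202 (37.5), 3L 165 (30.5), 2L 150 (36.0) and 2R 114 (23.4). Chromosomes 4 and Y held 0, in 0.256 and 0.852 Mb, with 2 and 89 sub-threshold deep intronic peaks. The pan gene lies on chromosome 4.

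The sites lay in first introns more often than the background did. A summit was inside the first intron of at least 1 host transcript for 426 peaks (49.2%), against 38.3% of sub-threshold deep intronic peaks (7909 of 20625). By Fisher's exact test the odds ratio was 1.56 (1.36 to 1.79, p = 2.0e-10). Stratified by TSS distance, an analysis chosen after the data were seen, it was 1.46 (1.28 to 1.68). All 8 summits of sbb, all 8 of Snoo and all 8 of gpp were in such an intron, whereas none of the 9 in rdx was. The shortest intron around a summit had a median length of 18748 bp.

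The deep intronic peaks were weaker, and less often found in both replicates, than peaks nearer to promoters. Both replicates' passing lists held 389 of them (45.0%, exact interval 41.6 to 48.4%), where 53.0% of all conservative peaks were in both lists. Introns 1 to 5 kb from a TSS stood at 54.9% (odds ratio 0.672, 0.564 to 0.802, Fisher's exact adjusted p = 2.29e-05) and promoters at 55.7% (0.649, 0.558 to 0.754, exact adjusted p = 4.66e-08). Against intergenic peaks, at 48.2%, the odds ratio of 0.877 (0.722 to 1.07) did not pass (exact adjusted p = 0.235). These p-values were adjusted over 6 comparisons. The difference did not pass when each replicate's longer ranked list replaced its passing list, at 0.925 against introns 1 to 5 kb from a TSS and 1.07 against promoters. With only the strongest peak of each host it turned, at 1.2 and 1.16, a choice that selects strong peaks.

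Strength gave the same order. The authors' pooled signal, on a scale the sources do not state, had a median of 109 and ran from 2.03 to 1255 across the deep intronic peaks. It exceeded the median of the conservative list, 120.0, in 366 of them (42.3%), where 50% of all conservative peaks exceeded it by construction. Introns 1 to 5 kb from a TSS stood at 50.4% (odds ratio 0.722, Fisher's exact adjusted p = 0.000502) and promoters at 53.6% (0.635, exact adjusted p = 2.02e-08). Intergenic peaks stood at 43.5% (0.952, exact adjusted p = 0.652) and did not differ past the threshold. In replicate 2's own list neither called difference in strength passed, at 0.945 and 0.892, and with only the strongest peak of each host they turned, at 1.39 and 1.22. Stratified into 5 classes of pooled signal, a choice made after the data were seen, the odds ratio for presence in both lists was 0.711 (0.533 to 0.95) against introns 1 to 5 kb from a TSS and 0.922 (0.718 to 1.18) against promoters. The plot of shares by position class shows both measures.

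**Figure D1:**
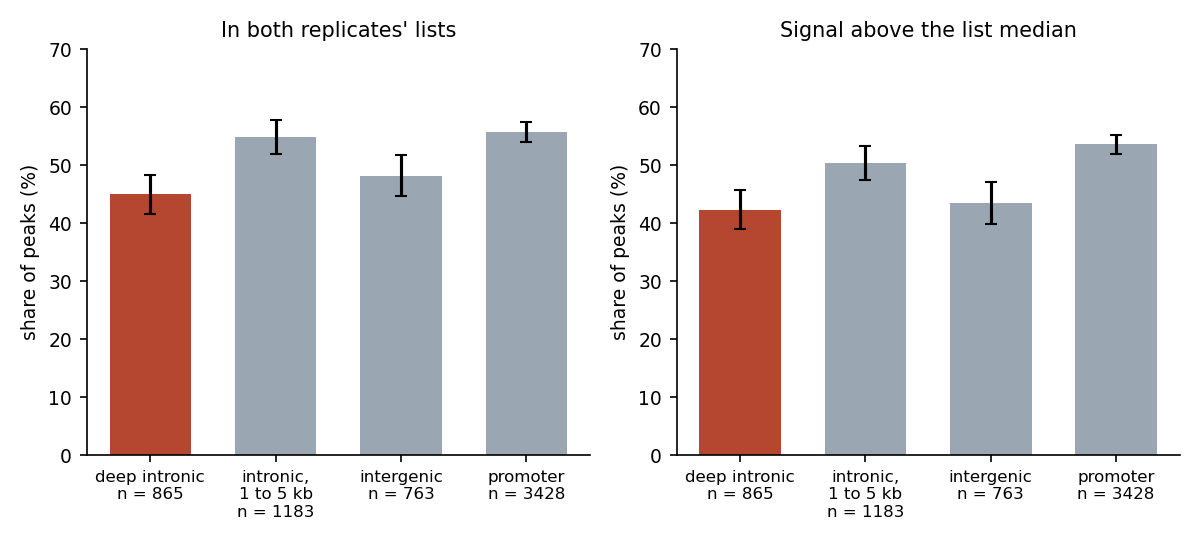
Share of conservative peaks that were in both replicates' passing lists (left) and share with a pooled signal above the median of the conservative list (right), in percent, for deep intronic, intronic 1 to 5 kb, intergenic and promoter summits. Bars are shares, error bars exact 95% intervals, n is the number of peaks; deep intronic peaks stand at 45.0% and 42.3%, near the intergenic and below the promoter values.

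Most deep intronic sites had like signals in the 2 replicates. A matching peak existed in the ranked lists of both replicates for 817 of the 865, with a Spearman correlation of the replicate signals of 0.711 across peaks, given as a description since the pooled list was chosen for reproducibility. The 2 signals were within 1.5-fold of each other in 664 of the 817 (81.3%). Replicate 1's passing list alone held 104 peaks, replicate 2's alone 137 and neither 235. These counts, and the share within 1.5-fold, were not worked out for all conservative peaks. They therefore describe the deep intronic peaks and do not set them apart from the others. Presence in both lists followed pooled signal: in 5 equal classes, from the strongest, the share was 99.4%, 84.4%, 34.7%, 6.36% and 0%.

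**Figure D2:**
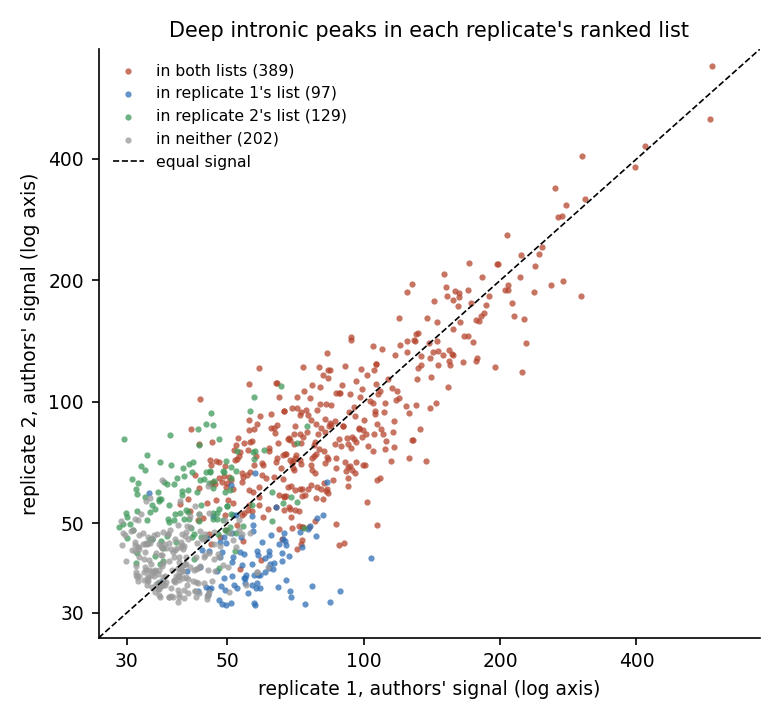
Authors' signal of the 817 deep intronic peaks with a match in both replicates' ranked lists, replicate 1 against replicate 2, both on log axes. Each point is a peak, coloured by the passing lists that hold it, and the dashed line marks equal signal; peaks in neither list crowd the low corner, and 81.3% lie within 1.5-fold of the line.

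Part of the weak tail lay beside stronger peaks. The pooled signal was below 20 in 37 deep intronic peaks, every one of which lay within 340 bp of a stronger conservative peak, and 0 of the 37 were in both lists. The conservative list as a whole had 202 peaks under 20. In all, 48 deep intronic summits lay within 500 bp of a stronger one, and such neighbours can match the same replicate peak. The width was 340 bp, the commonest value, in 724 peaks (83.7%), and in 0 of the 20 strongest. Median width was also 340 bp in introns 1 to 5 kb from a TSS, in intergenic DNA and at promoters. The counts beside stronger peaks and of widths were not worked out for all conservative peaks. They do not set the deep intronic peaks apart.

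The 20 strongest deep intronic peaks had pooled signals from 420.2 to 1255, and every one was in both replicates' lists, as a choice by pooled signal favours. The signals of the 2 replicates were within 1.5-fold in 19 of the 20. The leading one, in CG32486 and 5721 bp from a TSS, had 587 in replicate 1 and 680.4 in replicate 2. The second, inside the overlapping genes CG12912, Hr3 and CG46321, had 583 and 503. Hr3 encodes a nuclear receptor of the ecdysone response.

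Next in the 20, the Gug peak, in the gene of the Atrophin co-repressor, had 397 in replicate 1 and 382 in replicate 2. JIL-1, a histone H3 kinase, had 303 and 406, and the peak shared by Mi-2, a chromatin remodeller, and Su(Tpl), an elongation factor, had 279 and 308. The p66 subunit gene simj, of the same remodelling complex as Mi-2, held 2 of the 20, with pooled signals of 504 and 451. Psc, a Polycomb group gene, stood at 488, gpp, the H3K79 methyltransferase, at 457, and sbb, a co-repressor, at 433.

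Hr4, a nuclear receptor gene, held 3 of the 20, with 608, 569 and 420.2. Raf, the kinase between Ras and MEK, had a peak of 840.0, with 419 in replicate 1 and 431 in replicate 2. The rdx peak of 628 lies in roadkill, an adaptor that sends the Hedgehog effector Ci to degradation. The Wnt and planar polarity receptor gene fz had 463, and Lrch, AdamTS-B, E23 and CG6966 had 582, 475, 461 and 452.

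A total of 438 genes, 422 of them protein-coding, hosted at least 1 deep intronic peak, of 1823 genes with any deep intronic DNA (24.0%). The share of genes that hosted a peak followed the amount of such DNA, from 7.24% of genes with under 5 kb through 30.8% and 45.6% to 56.3% of genes with over 50 kb. There were 246 hosts with 1 summit, 192 with 2 or more and 38 with 5 or more. Overlapping hosts count the same peak, as they did for 54 peaks.

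The 10 hosts with the most summits held 87 peaks, 10.1% of all. The adhesion gene kirre, which marks founder cells of muscle, held 17, of which 8 were in both lists, in 226 kb of deep intronic DNA. Its 5 strongest summits had like pooled signals, of 179.7, 178, 177, 172 and 159. At the other end, 3 of its summits, at 10.2, 3.46 and 3.16, lay within 500 bp of a stronger peak. The homeobox gene hth held 11, with 5 in both lists and 340.1 at most. The overlapping genes Glut4EF and CG46467 shared their 10, of which 2 were in both lists.

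Of the others, gpp had the most summits for its length. In gpp, 8 summits lay in 23.9 kb of deep intronic DNA, or 33.5 per 100 kb, and in rdx 9 lay in 34.2 kb, or 26.3 per 100 kb, against 7.51 in kirre. In sbb, 7 of 8 summits were in both lists, and the 5 strongest had 433, 411, 389, 364 and 297. Snoo, a Ski/Sno family co-regulator of TGF-β signalling, had 4 of 8 in both lists, at 391, 289, 266 and 214, and the others at 98.7, 90.9, 77.7 and 68.0. The 8 in fz and the 8 in lncRNA:CR32773, 3 of which lie also in bi, complete the set.

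Genes of the Wnt pathway and genes reported to respond to Wingless held 45 of the deep intronic peaks in 15 hosts. Of 15 Wnt pathway genes with deep intronic DNA, 9 hosted a peak, and of 11 Wingless-responsive genes 7 did, where 24.0% of all genes with such DNA were hosts. Summits numbered 81.6 per Mb of deep intronic DNA in the first list and 78.7 in the second, against 29.6 over all such DNA. Sub-threshold peaks were denser there too, at 1002 and 1203 per Mb against 706. Of conservative and sub-threshold peaks together, 7.54% and 6.14% were conservative, against 4.03%. The median gene of each list also held more deep intronic DNA than the median of all genes with such DNA. Over all genes, the share of hosts rose with that amount. Both lists were chosen with results of these data known, and the summit densities of other lists below cover the same range. Of the 45 summits 20 were in both replicates' lists (44.4%) and 4 had a TCF core within 50 bp (8.89%), close to the 45.0% and 10.9% of all deep intronic peaks.

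Among ligand genes, wg had 1 summit, at 84.6 pooled (38.1 in replicate 1 and 51.0 in replicate 2), present in replicate 2's list alone. Wnt4 had 2, at 70.4 and 63.7, in neither list. The receptor gene fz had 8 summits in 71.7 kb, with pooled signals of 463, 165, 129, 117, 90.7, 85.4, 76.5 and 72.9. The 4 strongest were in both lists and 0 of the 8 had a TCF core. The Wingless receptor gene fz2 had 4, from 81.0 to 125, with 1 in both lists, and arr, the LRP5/6 co-receptor gene, had 1 at 134, with 46.4 in replicate 1 and 87.7 in replicate 2. The glypican genes dally and dlp had 1 each in both lists, at 149 and 146.

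Inside the cell, nkd, which encodes a feedback antagonist that binds Dishevelled, had 5 summits. The 2 strongest were in both lists, at 244 (105 in replicate 1 and 138 in replicate 2) and 243 (106 and 124). The others had 99.9, 67.2 and 60.6, and the weakest is the one with a core. The kinase gene nmo had 3, at 129.8, 126 and 117, with 2 in both lists. Across the Wnt pathway list, 1 of 26 summits had a core.

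Of the Wingless-responsive genes, dpp, a BMP ligand gene, had 1 summit at 275, with 130.3 in replicate 1 and 147 in replicate 2. The T-box gene bi had 3, at 192, 92.9 and 71.7, and the last had a core. The engrailed relative inv had 1 at 168 and the Hox gene Ubx 1 at 148, both in both lists. In hth the 2 summits with a core had 112 and 80.5, and none of its 5 summits in both lists had a core. The 2 in pxb had 79.9 and 5.04 and lay 227 bp apart. The plot of peaks by host gene shows these sites.

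**Figure D3:**
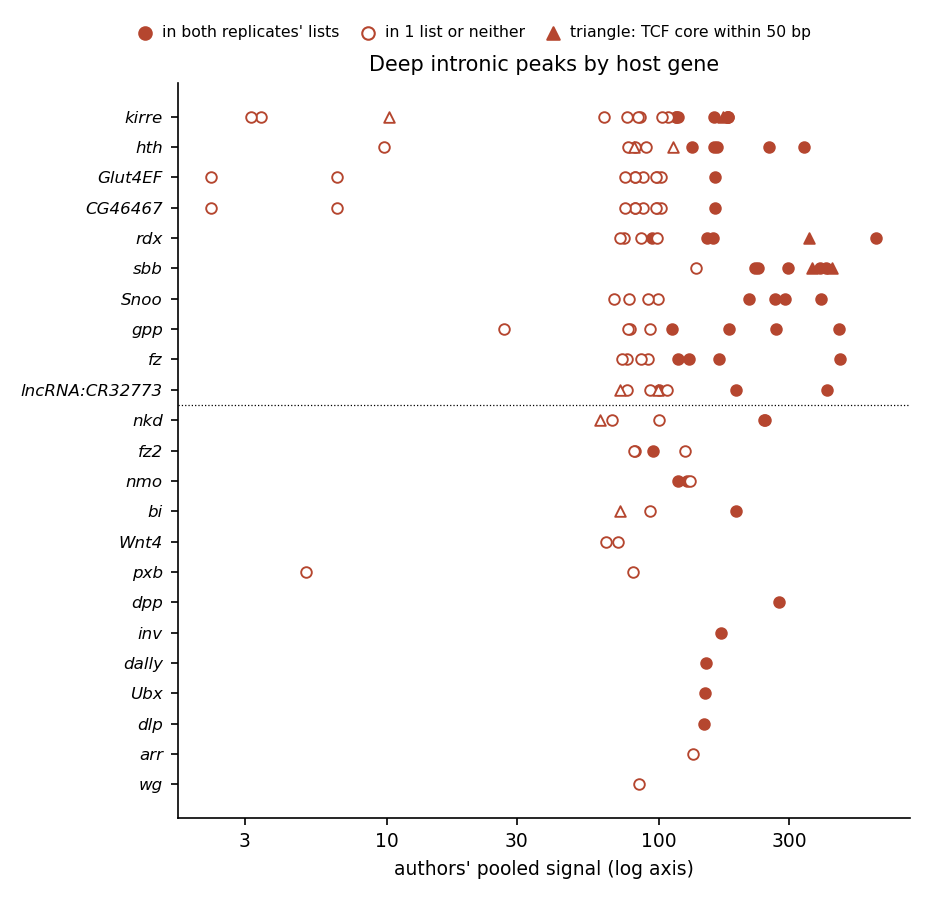
Authors' pooled signal (log axis) of every deep intronic peak in the 10 genes with the most of them (above the dotted line) and in further Wnt pathway and Wingless-responsive genes (below it). Each symbol is a peak, filled when in both replicates' lists and triangular when a TCF core lies within 50 bp of the summit; the 8 peaks of fz include no triangle, and symbols at the far left lie within 500 bp of a stronger peak.

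The other lists differed widely in how densely they were occupied, against the 29.6 summits per Mb over all deep intronic DNA. No test was made of these lists, and summits within a gene share its locus. Sub-threshold peaks in these other lists differed in density too, from 483 per Mb in ion channel and synaptic genes to 1180 in BMP and Activin genes. Over all deep intronic DNA they stood at 706 per Mb. BMP and Activin genes stood at 152 per Mb, with 6 of 9 as hosts, led by Dad (pooled signal 339), an inhibitory Smad, cv-2 (319) and dpp. Chromatin and co-repressor genes stood at 143 per Mb, with 9 of 18 as hosts, led by Gug (779), Mi-2 (596) and Psc (488). Hedgehog and Hippo genes stood at 117 per Mb, with 6 of 13, led by rdx (628), kibra (242) and wts (223).

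Lists of intermediate density were led by signalling and nuclear receptor genes. EGFR, FGFR and Ras genes stood at 82.8 per Mb (10 of 20 hosts), led by Raf (840.0), S (305) and bnl (276). Nuclear receptors and ecdysone response genes stood at 79.0 per Mb (9 of 14), led by Hr3 (1085), Hr4 (608) and ftz-f1 (346). Cytoskeleton and polarity genes followed at 69.3 per Mb (9 of 23, led by spir at 341, scrib at 301 and baz at 151), then zinc finger and BTB regulators at 58.3 (11 of 25, led by luna at 313, pnt at 217 and ush at 201).

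Notch pathway genes stood at 55.4 per Mb (3 of 9: N at 401, mam at 139.7 and kuz at 79.7). Homeobox genes stood at 55.4 per Mb as well (12 of 42), led by hth (340.1), Antp (197) and ct (177). The other 4 lists were below the value over all deep intronic DNA. Immunoglobulin adhesion and axon guidance genes had 27.5 per Mb, with 20 of 55 as hosts, led by Fas3 (363), NetA (276) and kirre (179.7). RNA-binding regulators had 21.7, with 10 of 17 as hosts, led by how (271), fne (216) and msi (164).

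Muscle, heart and mesoderm genes had 13.7 per Mb (4 of 18, led by Zasp52 at 286, how and if at 139.6). Ion channel and synaptic genes had 5.79, with 3 of 33 as hosts: Ca-alpha1T (126), nAChRalpha6 (80.7) and nAChRalpha1 (62.8). These 33 genes contain 863 kb of deep intronic DNA and hold 5 summits, and the 18 chromatin genes contain 167 kb and hold 24. Genes of cytosolic ribosomal proteins have no deep intronic DNA at all (0 of 18).

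The sequence under the deep intronic summits was a narrow AT-rich dip between GC-rich shoulders. The median GC content within 50 bp of the summit was 32.7%, against 41.6% in the mean of 2 windows centred 500 bp to either side. It was lower at the summit in 659 peaks, higher in 199 and equal in 7 (exact two-sided sign test, p = 3.13e-58). In bins of 50 bp the mean was 34.1% and 33.9% on either side of the summit and reached 45.0% 225 bp away, above the 40.1% of deep intronic DNA as a whole.

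The dip was shared with introns nearer to promoters and was absent below the threshold. Low GC at the summit was not particular to introns, with a median of 32.7% in intergenic and 35.6% in promoter peaks. In introns 1 to 5 kb from a TSS the central bins stood at 34.0% and 34.1% and the bin 225 bp away at 43.6%. In sub-threshold deep intronic peaks they stood at 44.3% and 44.2%, with 42.5% at 225 bp. GC at the summit was lowest where signal was highest, with means of 30.9%, 31.7%, 34.4%, 34.8% and 38.3% in the same 5 classes from the strongest. Flanks were not split by class, so the depth of the dip in each was not measured. The weakest class includes the 37 peaks with a signal under 20, all within 340 bp of a stronger peak. GC content therefore moved with both peak strength and passing the threshold.

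**Figure D4:**
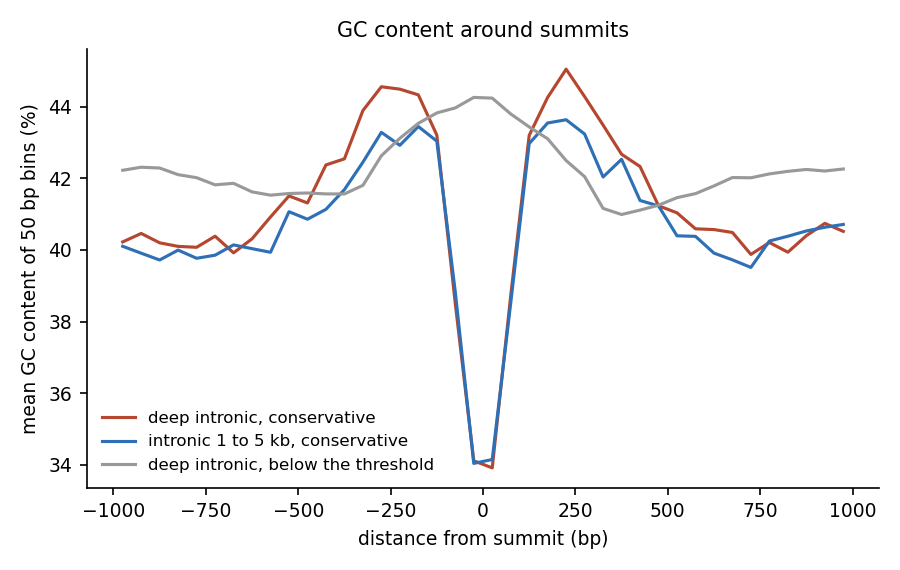
Mean GC content (%) in 50 bp bins by distance from the summit (bp) for deep intronic conservative peaks, conservative peaks in introns 1 to 5 kb from a TSS, and deep intronic peaks below the threshold. Both conservative sets fall to about 34% at the summit, where the sub-threshold set stands at 44.3%; the vertical axis does not start at 0.

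The TCF core occurred within 50 bp of 94 deep intronic summits (10.9%), where 9.47% of all conservative summits had one. In the 2 flanking windows the share was 8.67%. With each summit matched to its own flanks the odds ratio was 1.28 (0.978 to 1.68), which did not pass (exact conditional p = 0.0854; adjusted over 14 motifs, exact p = 0.239). Flanks centred 300 bp away gave 1.53 and flanks centred 1000 bp away 1.5, both past the threshold, so the call depends on which neighbouring sequence is used. Over the whole peak, 246 of 865 had a core, a count that was not made for flanks or other peaks. In bins of 50 bp, core sites numbered 1.18 per kb on either side of the summit. Bins out to 1 kb ran from 0.694 to 1.25 per kb.

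Against sub-threshold deep intronic peaks the core was more frequent, 10.9% against 7.36% (odds ratio 1.53, 1.23 to 1.91, Fisher's exact p = 0.000276, adjusted over 14 motifs 0.00129). In replicate 2's own list the odds ratio was 1.35 (Fisher's exact unadjusted p = 0.034), which did not pass over 14 motifs. Stratified into 10 classes of GC content, likewise chosen after the data were seen, the odds ratio was 1.23 (0.973 to 1.55), an interval that includes 1. Between position classes no difference passed over 42 comparisons: 10.9% of deep intronic summits had a core against 10.7% in introns 1 to 5 kb from a TSS, 11.9% of intergenic and 8.14% of promoter summits (Fisher's exact adjusted p = 1, 0.770 and 0.0894).

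Peaks with a core did not differ past the threshold from those without in strength or in presence in both lists. Both lists held 46 of the 94 peaks with a core (48.9%) and 44.5% of the 771 without (odds ratio 1.2, 0.779 to 1.84, Fisher's exact p = 0.443). A signal above the list median was found in 45.7% and 41.9% (odds ratio 1.17, 0.761 to 1.8, exact p = 0.508). In the 5 classes of signal, from the strongest, 11.0%, 11.6%, 12.1%, 9.25% and 10.4% had a core. The core was within 10 bp of the summit in 22 of the 94, and the number that even placement in the window would give was not worked out. Only 4 peaks had 2 cores and 2 had a core with a helper site, all but 1 of them printed above.

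The odds ratios of other motifs moved when GC content was held. Against their own flanks 2 of 14 motifs passed, both of them AT-rich. TATAAA was present at 23.7% of summits and 12.4% of flanks (odds ratio 2.2, 1.77 to 2.74, exact adjusted p = 1.0e-11), and the GATA site, GATA with A or T before it and A or G after it, at 22.1% and 16.6% (1.42, 1.16 to 1.74, exact adjusted p = 0.00635). Stratified by GC content, against sub-threshold deep intronic peaks, TATAAA stood at 1.22 (1.02 to 1.46) and the GATA site at 1.2 (1.01 to 1.42), compared with 3.34 and 1.85 before stratifying.

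The odds ratios of further motifs moved with the same stratification as well. The homeodomain site TAATTA had an odds ratio of 1.53 against sub-threshold peaks (Fisher's exact adjusted p = 0.0024) and 0.794 (0.618 to 1.02) when stratified by GC content. The helper site had 0.428 and 1.09, the CA repeat CACACACA 0.443 and 0.862, and the E-box CANNTG 0.796 and 1.14. The GAGA site GAGAG had 0.863 before and 1.31 (1.05 to 1.65) after. The Sox site AACAATG (1.29), the AP-1 site TGANTCA (1.58), the Grainyhead site AACNGGTT (1.31), the Zelda site CAGGTA (0.974) and the DREF site TATCGATA (0.993) did not pass against sub-threshold peaks, nor did the extended TCF form, which adds a leading C or G to the core (1.22). The plot of motif odds ratios gives all 3 comparisons.

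**Figure D5:**
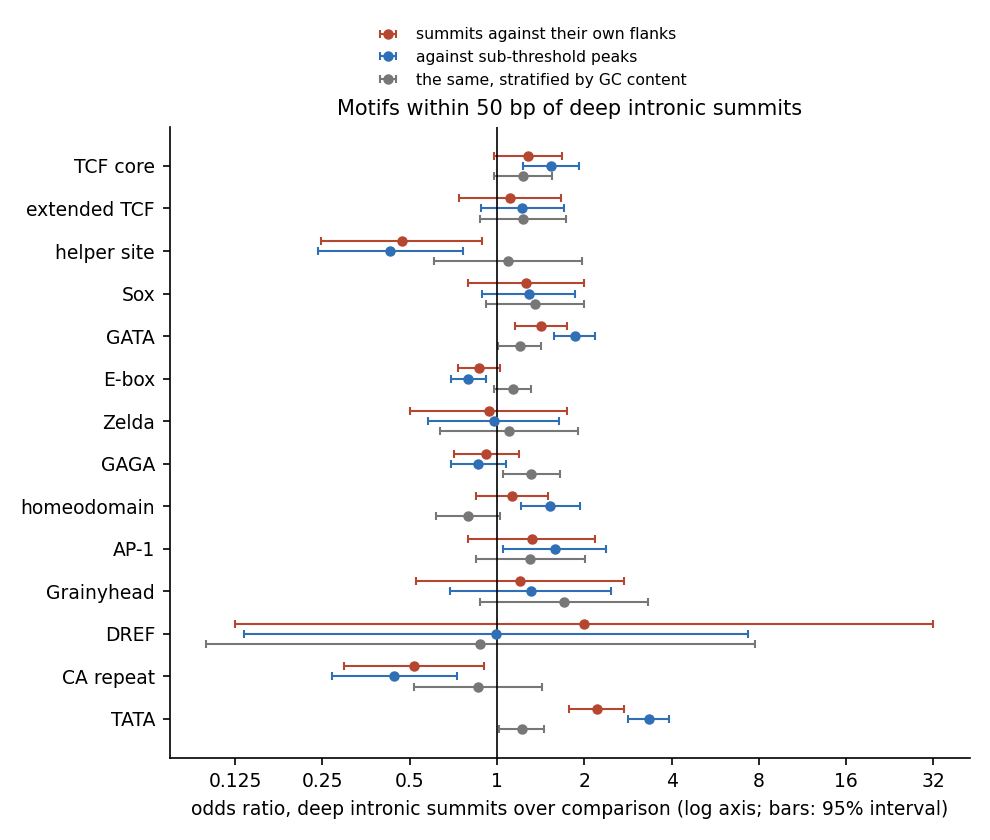
Odds ratios (log axis, points) with 95% intervals (bars) for 14 motifs within 50 bp of deep intronic summits, against the peaks' own flanks, against sub-threshold deep intronic peaks, and against the same sub-threshold set stratified into 10 classes of GC content. AT-rich motifs such as TATAAA stand at 3.34 against sub-threshold peaks and 1.22 when stratified.

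Compared with other conservative peaks, 4 motif differences passed over the 42 comparisons, by Fisher's exact test. The DREF site, of a promoter factor, was at 0.116% of deep intronic summits (1 of 865) and 2.74% of promoter summits, an odds ratio of 0.0411 (0.00571 to 0.295, exact adjusted p = 6.65e-07). The Sox site was at 3.58% and 1.72% of promoter summits (2.12, exact adjusted p = 0.018), and TATAAA at 23.7% and 18.5% (1.37, exact adjusted p = 0.0136). Against intergenic summits the E-box was more frequent, at 38.7% and 31.3% (1.39, exact adjusted p = 0.0192). Against introns 1 to 5 kb from a TSS 0 of 14 motifs passed by Fisher's exact test, and 0 had an unadjusted p below 0.05.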

How the data were processed

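Binding of pan-eGFP was measured by chromatin immunoprecipitation and sequencing in 2 biological replicates of whole embryos, forming 1 group. The deposited files were peak lists on dm6, per the file headers. A ranked list and a list that passed an IDR threshold came with each replicate and with the pool, which also had a conservative list. The authors gave each peak a score, a signal, a −log10 q-value and a summit, and each ranked peak a −log10 global IDR. The aligner, the caller and the scale of the signal were not given in the sources used here, so signals were compared inside one list, apart from the 2 replicates' signals for the same peak, which were set side by side as if on one scale. Deposited scores and −log10 q-values entered no test. Columns of the pooled ranked lists that hold unlabelled values per replicate were not used; replicate signals came from the nearest summit in each replicate's own ranked list, with an overlap of at least 50% of the shorter peak.

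Of 6366 conservative peaks, the 6359 on the main arms were placed on the Ensembl annotation of release 115 (exons of any transcript; TSS of any gene other than pseudogenes and transposable elements). The background was the 113608 pooled ranked peaks with a −log10 IDR below 2 that overlapped no passing list. Motifs were sought on both strands of the RefSeq dm6 sequence within 50 bp of each summit and in equal windows centred 500 bp to either side. Shares were set against each other with Fisher's exact test and Woolf intervals, summits and their own flanks by an exact conditional test with a Mantel-Haenszel odds ratio, and GC content by a sign test; adjustment was by the Benjamini-Hochberg method at 0.05, and exact intervals of shares were Clopper-Pearson, all 95%. The intervals cover neither sequencing depth nor the spread between embryos. Python 3.11.15, numpy 2.4.6, scipy 1.17.1, pandas 2.3.3 and matplotlib 3.10.9 were used, and the tests were tested on simulated data.

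The peaks, the 16 gene lists (522 entries), the motifs and the tests were chosen with earlier results of these data known. Genes named were hosts of the 20 strongest peaks, the 10 hosts with the most summits (ties by summed signal), every host of the Wnt and Wingless-responsive lists, and up to 3 hosts with the strongest peak in each other list. The printed sites were the strongest outside arm 2R, with and without a core; those with 2 cores or a helper site, and those of fz, dpp and nkd, were added after their values were seen, as were the counts given for lncRNA:CR32773 and bi together. Symbols of 5 list genes were matched to the annotation's spelling.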

Additional observations from a re-analysis of the deposited data

How the results depend on the processing

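Of 171 recalculated values, 126 were classed as the same. That meant the same direction and side of the threshold or, for counts of motifs, a count within 1.5-fold of the main one. The GC dip, the first intron share and the deep intronic share of peaks kept direction and side under every alternative run. An IDR of 0.01 is the limit that the conservative list already meets, so that alternative removed 0 peaks and tests nothing. Odds ratios are given below, deep intronic peaks over the comparison, and the cause of each shift was not tested unless stated. For the core against flanks and sub-threshold peaks, past the threshold here means the unadjusted exact p. Over 14 motifs the core passed against flanks with the 2 kb limit and with flanks at 300 or 1000 bp, and in no other alternative run. Keeping the strongest peak of each host (415 peaks) selects strong peaks by construction. Presence in both lists then became 1.2 against introns 1 to 5 kb from a TSS, 1.56 against intergenic and 1.16 against promoter peaks, and strength 1.39, 1.83 and 1.22. In that setting the core stood at 1.59 against flanks, past the unadjusted threshold, and at 0.986 against introns 1 to 5 kb from a TSS. With each replicate's ranked list, in which nearly all deep intronic peaks have a match, presence in both became 0.925 against introns and 1.07 against promoters. Stratified by pooled signal, presence in both passing lists was 0.922 against promoters. Without one replicate or the other, strength ran from 0.753 to 0.945 against introns 1 to 5 kb from a TSS, from 1.05 to 1.27 against intergenic and from 0.526 to 0.892 against promoter peaks, the higher value each time in replicate 2's list, and 2 to 6 motifs passed against flanks, the most in replicate 1's list. With a limit of 2 kb (1524 peaks) presence in both was 1.03 and strength 1.07 against intergenic peaks; the core passed against flanks (1.43), introns nearer a TSS (1.69) and promoters (1.53) and stood at 1.00 against intergenic peaks, and 5 motifs passed against flanks. With a limit of 10 kb (370 peaks) strength against introns was 0.81 and the core 1.43 against sub-threshold peaks, neither past the threshold, the core was 0.902 against introns, and 1 motif passed against flanks and 4 against sub-threshold peaks. With TSS of protein-coding genes alone the core passed against flanks (1.34, unadjusted) and promoters (1.4, adjusted). Without summits within 500 bp of a stronger one the core passed against flanks (1.35, unadjusted) and strength was 1.08 against intergenic peaks. In the longer pooled list the core was 0.861 against introns. Windows of 100 bp either side gave the core 1.3 against flanks (past the unadjusted threshold) and 1.35 against promoters (past the adjusted one), 1.12 against intergenic peaks, and 4 motifs against flanks; windows of 25 bp gave 1 motif. Flanks at 300 bp gave the core 1.53 and 6 motifs, and flanks at 1000 bp gave 1.5 and 4. Stratified by GC content the core was 1.23 against sub-threshold peaks. The unadjusted intervals of 3 motifs, TATAAA, the GATA site and GAGAG, then excluded 1. Before stratifying 7 motifs had passed after adjustment, and GAGAG was not among them. Depth was unknown, and 1 group of 2 replicates gives no second condition.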
